A study of Mus musculus with 54 samples.

Results

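Corneal resident myeloid cells (CRMCs) that had been sorted from the mouse cornea were set against the whole cornea, in order to list the genes enriched by the sort and the epithelial genes that stayed in it. The members were 4 sorted pools and 5 whole corneas, which made 9 of the 54 libraries of the series. They were picked out by their sample labels, not by measured values. The sorted pools were the KO-strain WT pool, the KO pool, the MS-strain WT pool and the MS-CKO pool, each 1 library from the corneas of several mice. Read from their labels and column headings, the whole cornea libraries were of 5 WT mice of the MS strain, 1 mouse each. All mice were male, naïve and 8 to 12 weeks old.

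All 9 libraries came from mice that carry Csf1r-EGFP, a transgene in which the Csf1r promoter drives a green fluorescent protein, and the sort was a gate on that fluorescence. The KO pool was homozygous for a gene trap in miR-183C, the microRNA cluster that the study was about, and the KO-strain WT pool was from its WT littermates. The values of the KO pool come from a column headed CKO without the MS prefix of the MS-strain columns, and its genotype rests on reading that heading as the KO strain. The MS-strain mice were homozygous for a floxed miR-183C. The MS-CKO mice carried in addition LysM-Cre, a Cre recombinase placed in the Lyz2 locus and active in myeloid cells, which the MS-strain WT mice lacked. Every sorted pool thus had its own genotype and strain, so that pool, genotype and strain cannot be told apart, and no genotype was compared here. The sorted corneas were cut anterior to the limbus, and the study's methods do not state how the whole corneas for RNA were cut. The sorted corneas went through a single-cell preparation and the sorter, whereas the whole corneas did not. The enrichment of a cell type and the response to that handling thus cannot be told apart.

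CRMCs are macrophages and dendritic cells that lie in the corneal stroma and, more sparsely, among the basal cells of the epithelium and along the nerves. Csf1r, the receptor of macrophage colony-stimulating factor, is needed for the survival of most tissue macrophages. Cd74, the invariant chain, escorts MHC class II molecules to the compartments where they are loaded with peptide for T cells. By mass the cornea is mostly stroma, which holds scattered keratocytes, but most of its cells and RNA belong to the stratified epithelium on its surface. Corneal epithelium is known for Krt12, the keratin particular to it, for Krt5 and Krt14, the keratins of basal cells, and for Aldh3a1 and Tkt, enzymes present in such amounts that they are called corneal crystallins.

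The libraries were made from the 3′ ends of polyadenylated RNA and hold read counts per gene. The sorted pools held 2261266 counts (KO-strain WT), 4214416 (KO), 6569553 (MS-strain WT) and 10803867 (MS-CKO), and the whole corneas between 2799406 and 6741290. Counts were found for only 1647, 3484, 3374 and 6443 genes in the sorted pools, in the same order, against 15550 to 16725 genes in the whole corneas. The genes that were detected held many counts each in the sorted pools, with a median of 572 to 801.5 against 34 to 66 in whole cornea. Any 2 sorted pools correlated weakly across genes (Spearman rho 0.293 to 0.435 over 20422 genes, a description since genes are not replicates), while any 2 whole corneas correlated at 0.938 to 0.953. The level of a gene in whole cornea went with its detection in the pools. Of the 85 genes at or above 1000 CPM (counts in each 1000000 counts of the library) in whole cornea, 78.8% were detected in the KO-strain WT pool and 100% in the MS-CKO pool. Of the 6393 genes at 10 to 100 CPM, those shares were 9.98% and 51.2%. A gene at 0 in a sorted pool is given here as not recovered in that library, which is not the same as absent from the cells. In such bulk libraries, fewer cells of a type and less RNA per cell cannot be told apart.

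**Figure D1:**
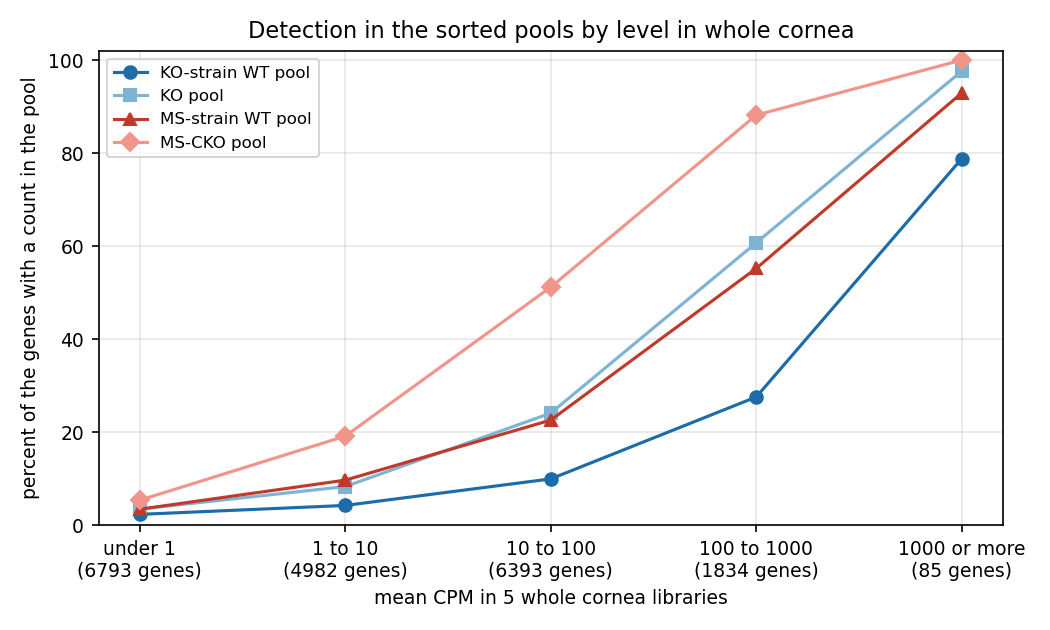
Percent of genes with at least 1 count in each sorted pool (y axis), for genes grouped by their mean CPM in the 5 whole cornea libraries (x axis, from under 1 CPM to 1000 CPM or more). Each line is 1 sorted pool. At 100 to 1000 CPM the KO-strain WT pool holds 27.6% of the genes, the KO pool 60.7%, the MS-strain WT pool 55.2% and the MS-CKO pool 88.2%.

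Myeloid genes held a larger share of the counts after the sort, and epithelial genes a smaller but not small one. The 140 genes of the myeloid lists, leaving out those of the lysosome and the actin skeleton, took up 11.8%, 6.76%, 3.06% and 2.58% of the counts of the KO-strain WT, KO, MS-strain WT and MS-CKO pools, against 0.370% to 0.421% in whole cornea. The 90 genes of the epithelial lists took up 2.62%, 8.00%, 1.88% and 6.48%, against 13.7% to 14.1%. The 14 genes of the keratocyte and stroma list went the other way from the epithelium, with 1.29%, 0.821%, 7.32% and 6.49% in the pools and 0.195% to 0.395% in whole cornea. All 4 pools lay above every whole cornea for the myeloid and the stromal genes and below every whole cornea for the epithelial genes. Epithelial genes outweighed these myeloid genes in the KO pool and the MS-CKO pool, although with the lysosome and actin genes counted in, the myeloid share of the KO pool was the larger (9.88% against 8.00%), and stromal genes outweighed myeloid genes in both MS-strain pools. Myeloid cells sorted from the spleen of the same 4 kinds of mice, which hold no cornea, gave 5.98% to 7.65% for the myeloid lists and 0.211% to 0.284% for the epithelial lists.

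**Figure D2:**
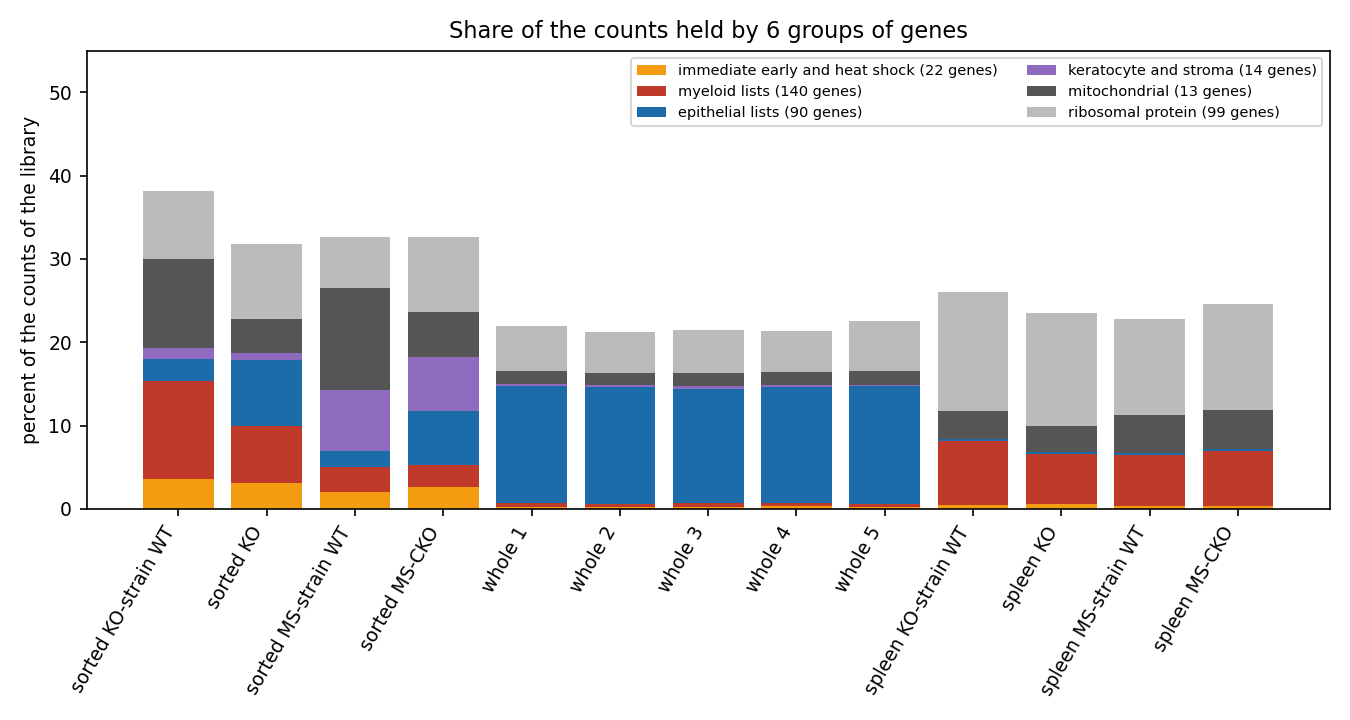
Percent of the counts of each library (y axis, stacked bars from 0) held by 6 groups of genes, in the 4 sorted corneal pools, the 5 whole corneas and the 4 sorted spleen pools (x axis). The bars of the sorted pools differ from each other in every colour, for example 4.13% to 12.3% for the 13 mitochondrial genes, while the whole corneas are alike.

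For each gene the 4 sorted pools were compared with the 5 whole corneas by edgeR's quasi-likelihood test, in which a log2 change is that of the sorted pools over whole cornea and a gene was called at a Benjamini-Hochberg adjusted p under 0.05. Of 11415 genes with enough counts to be tested, 211 (1.85%) were higher in the sorted pools and 4830 (42.3%) were lower. The filter asked for enough counts in at least 4 libraries. A gene near 0 in every whole cornea was thus tested only if all 4 pools held enough counts of it. An unadjusted p under 0.05 was reached by 5237 genes. The groups did not overlap for 191 genes that lay higher in all 4 pools and for 6009 that lay lower. Of the 4830 lower genes, 4158 had no count in any pool and 38 had counts in all 4, so that the lower side is mainly a list of genes that were not recovered. All 4158 tested genes with no count in any pool were called lower, so that such a call restates that the gene was not recovered. Another scaling of the libraries moved the median of all tested genes, from −2.58 to −2.34 with library totals and to −3.05 with RLE factors, and each change is given relative to the scaling of the test. Of the 211 higher genes, 182 had counts in all 4 pools and the other 29 in 3. Leaving out the KO-strain WT pool gave 350 higher genes, 193 of the 211 among them, leaving out the MS-CKO pool gave 7533 lower genes, and leaving out whole cornea 2 or 4 gave 140 or 139 higher genes. The median log2 change of the 211 higher genes was 4.61, and the smallest rise was 1.99-fold. The median over all tested genes was −2.58, and it moved to −4.17 without the KO pool, to −7.67 without the MS-CKO pool and to −8.38 with only the WT pools. Of the higher genes, 44 belonged to the myeloid lists (45.4% of 97 tested) and 0 to the epithelial lists (of 83 tested). Lists of other tissues and cells held 6 (18.8% of 32, all 6 stromal). The immediate early, heat shock and housekeeping lists held 20 (64.5% of 31). Over all tested genes 1.85% were higher, and the 0 of 83 lies near that share. The counts by list below stand beside 1.85% higher and 42.3% lower over all tested genes.

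Csf1r, whose promoter drives the reporter used for the gate, stood at 857.9, 1029, 322.4 and 182.2 CPM in the KO-strain WT, KO, MS-strain WT and MS-CKO pools and at 0 to 4.66 CPM in whole cornea. All pools lay above all whole corneas, and the log2 change was 7.32 ± 1.34 (SE; adjusted p = 0.00129). Of the 27 genes of the macrophage identity list, 18 were tested, 10 were higher (beside 1.85% of all tested genes) and 1 was lower, with a median log2 change of 4.51. C1qa, C1qb and C1qc encode the chains of complement C1q and lie side by side at chr4:136880129-136898803 of mm10. C1qb stood at 4321, 1203, 704.3 and 1024 CPM in the pools and at 0.357 to 5.09 CPM in whole cornea (log2 change 8.81 ± 1.01, adjusted p = 6.52e-05). C1qc was close to it in pattern, with 2299, 1327, 460.0 and 595.8 CPM (9.10 ± 1.35, adjusted p = 0.000324). C1qa had 1271, 2484 and 818.4 CPM in 3 pools but 16.6 CPM in the MS-strain WT pool, which was still above the 5.51 CPM of the highest whole cornea (8.53 ± 1.43, adjusted p = 0.000726). The 3 genes of the complex were higher in every pool than in any whole cornea. C1qb and C1qc had the pools in the same order, and C1qa in another.

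Lyz2, which encodes lysozyme and whose locus carries the Cre of the MS-CKO mice, stood at 932.7 and 2368 CPM in the KO-strain WT and KO pools and at 19.8 and 77.5 CPM in the MS-strain WT and MS-CKO pools, against 0 to 0.445 CPM in whole cornea (log2 change 11.64 ± 2.09, adjusted p = 0.00115). Pf4, a chemokine of platelets that macrophages also make, had 2271, 1780, 565.2 and 739.6 CPM and at most 0.794 CPM in whole cornea (11.85 ± 1.64, adjusted p = 0.000209). Both lay above every whole cornea in all pools, and lower in the MS-strain pools than in the KO-strain pools. Cd68, a glycoprotein of macrophage lysosomes, stood at 673.5, 626.9, 506.6 and 166.1 CPM against 6.82 to 15.6 CPM (4.82 ± 0.60, adjusted p = 0.000109). Apoe, a lipid carrier that macrophages secrete, had the highest level of the list and the smallest rise, with 7838, 4064, 3777 and 2415 CPM against 627.9 to 717.8 CPM (2.14 ± 0.20, adjusted p = 2.43e-05). Cd14, the co-receptor for lipopolysaccharide, had 2636, 1230, 0 and 158.0 CPM and at most 2.75 CPM in whole cornea (8.33, adjusted p = 0.0101), with the MS-strain WT pool alone below the whole cornea.

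Other genes by which macrophages are commonly recognised were recovered in some pools only. Adgre1, the F4/80 antigen, had 1060 CPM in the KO-strain WT pool, 22.3 CPM in the MS-CKO pool and 0 in the KO and MS-strain WT pools. Cx3cr1, the fractalkine receptor, had 311.3 and 59.2 CPM in the MS-strain WT and MS-CKO pools and 0 in the others. Ptprc, the pan-leukocyte antigen CD45, was at 46.9, 0, 378.7 and 105.4 CPM. Neither Adgre1 nor Ptprc had counts in enough libraries to be tested, and the log2 change of Cx3cr1 was 4.19 (adjusted p = 0.168). Itgam, the integrin chain CD11b, had 118.7 to 167.5 CPM in whole cornea and in the pools 0, 140.0, 0 and 2.04 CPM (−2.65, adjusted p = 0.416). Mertk, a receptor for apoptotic cells, was the 1 gene of this list that was lower, with 0, 0, 0.152 and 2.04 CPM against 16.1 to 26.4 CPM (−5.27, adjusted p = 0.0150). Cd163 and Lyve1, which mark perivascular macrophages, and Timd4 had 0 counts in all 4 pools, which allows at most 0.126 CPM over the pools together (3 counts, counting error only).

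**Figure D3:**
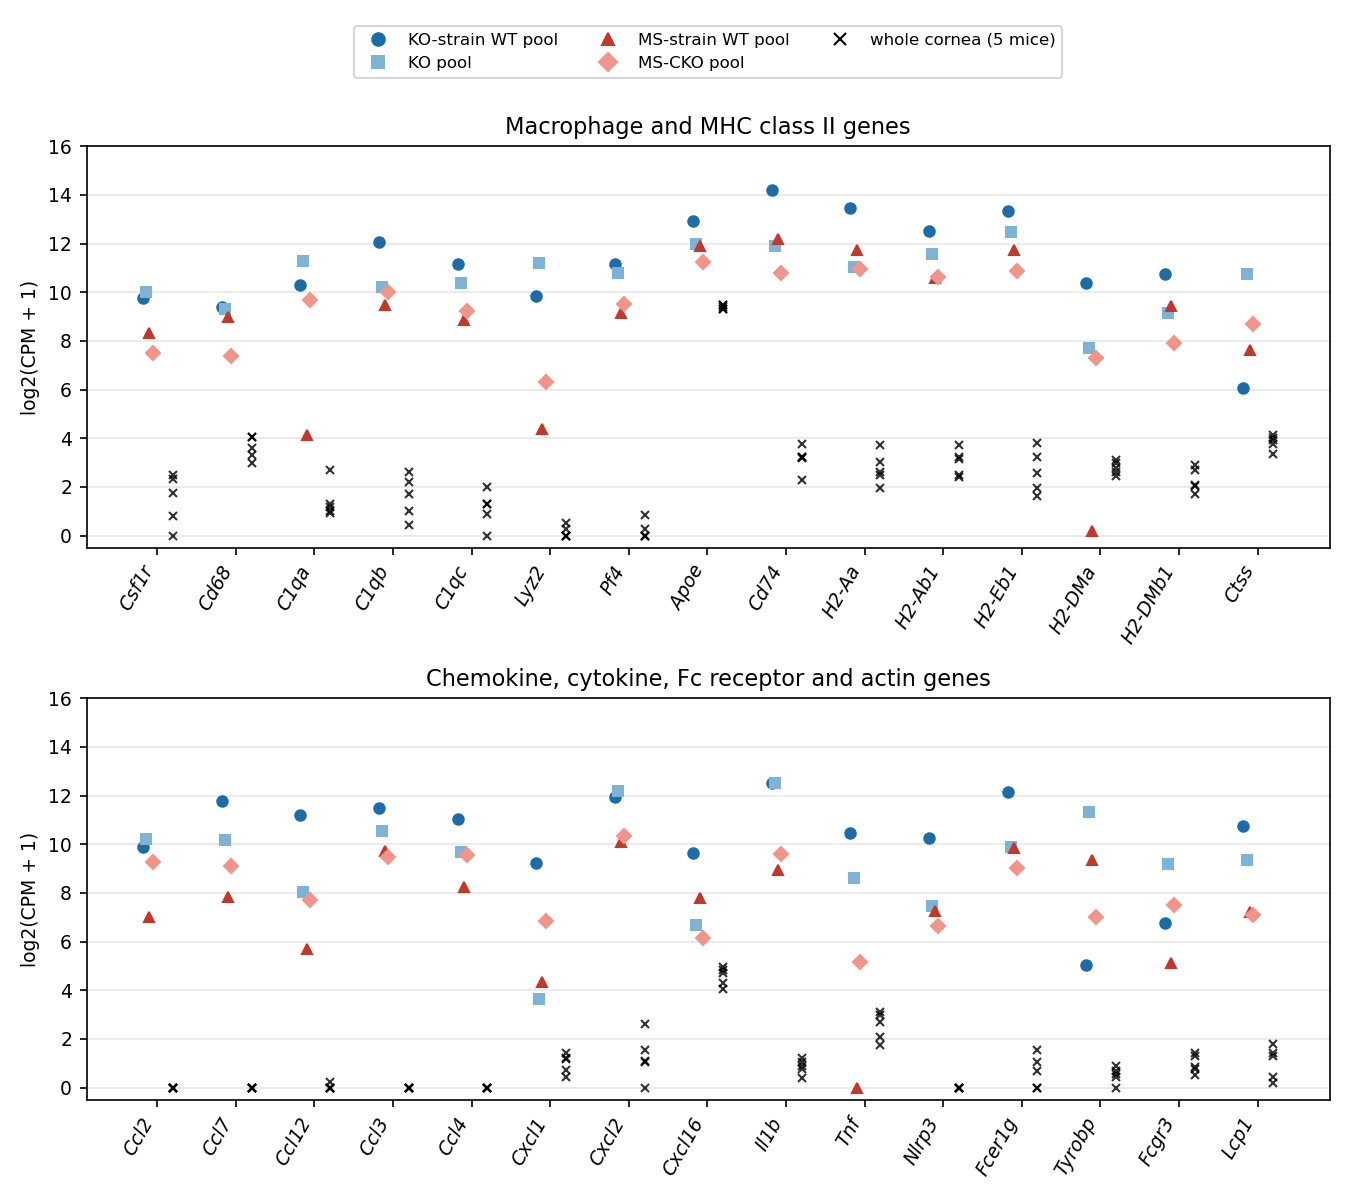
Levels of 30 myeloid genes as log2(CPM + 1) (y axis) in the 4 sorted pools (coloured symbols) and the 5 whole corneas (black crosses). Whole cornea values lie near 0 for most of these genes, as for Ccl3 with 0 in all 5, and Cd74 reaches 18922 CPM in the KO-strain WT pool.

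The genes of antigen presentation by MHC class II changed together. Of the 11 genes of the list, all 7 that could be tested were higher, with a median log2 change of 7.99. Cd74 stood at 18922, 3848, 4633 and 1755 CPM in the KO-strain WT, KO, MS-strain WT and MS-CKO pools and at 3.93 to 12.5 CPM in whole cornea (log2 change 9.04 ± 0.73, adjusted p = 1.71e-05). H2-Aa, the α chain of I-A, had 11272, 2098, 3443 and 1999 CPM against 2.86 to 12.1 CPM (8.84 ± 0.72, adjusted p = 1.71e-05). H2-Ab1, its β chain, had 5827, 3007, 1544 and 1562 CPM against 4.29 to 12.1 CPM (7.99 ± 0.55, adjusted p = 1.71e-05). Every pool held over 100 times as much of these 3 genes as any whole cornea, and the KO-strain WT pool held the most of each. H2-Eb1, the β chain of I-E, had 10425, 5710, 3425 and 1868 CPM against 2.08 to 12.9 CPM (9.07 ± 0.78, adjusted p = 1.79e-05). H2-DMb1, a chain of the H2-M molecule that exchanges the peptides, had 1733, 571.1, 687.9 and 238.6 CPM against 2.28 to 6.51 CPM (6.92 ± 0.72, adjusted p = 3.81e-05). Its partner H2-DMa had 1343, 207.9 and 158.6 CPM in 3 pools and 0.152 CPM in the MS-strain WT pool, below the 4.45 to 7.50 CPM of whole cornea (5.34 ± 1.59, adjusted p = 0.0214). Ctss, the protease that trims the invariant chain, had 65.5, 1737, 197.0 and 413.8 CPM against 9.35 to 16.7 CPM (4.96, adjusted p = 0.00238).

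The 4 members that were not tested were thinly recovered. Ciita, the coactivator that switches on this set of genes, was seen in the KO pool only, at 155.7 CPM. H2-Ob, a chain of the H2-O molecule that restrains peptide exchange, had 485.6 and 26.3 CPM in the KO-strain WT and KO pools and 0 in the others. H2-Oa and H2-DMb2 were at 0 in all 9 libraries. Summed over the list, the pools held 7996 to 50072 CPM, the whole corneas 37.8 to 75.6 CPM and the spleen pools 28986 to 47116 CPM. The KO-strain WT pool, the highest, was the 1 corneal pool above every spleen pool.

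MHC class II promoters are known for the X and Y boxes, short elements just upstream of the start that hold the complex to which the protein of Ciita binds. The promoters of 3 of the higher genes are shown for those letters, since these genes moved together. They are 150-base stretches of the RefSeq promoters (GRCm38.p6, the assembly behind mm10), 5′ to 3′ on the strand of the gene, with GATTGG (the core of the Y box), its complement CCAATC and AGCAAC (a core of the X box) in capitals.
H2-Aa, chr17:34287824-34287973, minus strand: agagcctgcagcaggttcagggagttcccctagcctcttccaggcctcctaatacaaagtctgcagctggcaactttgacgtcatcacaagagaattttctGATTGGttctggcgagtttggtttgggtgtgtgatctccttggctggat
H2-Eb1, chr17:34305717-34305866, plus strand: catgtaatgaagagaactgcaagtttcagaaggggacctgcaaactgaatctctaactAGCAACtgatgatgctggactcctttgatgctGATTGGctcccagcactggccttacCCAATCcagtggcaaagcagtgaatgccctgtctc
H2-DMb1, chr17:34153041-34153190, plus strand: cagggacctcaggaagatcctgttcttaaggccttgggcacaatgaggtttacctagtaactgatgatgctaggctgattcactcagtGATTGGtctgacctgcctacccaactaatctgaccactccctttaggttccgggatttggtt

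GATTGG, searched on both strands of the 300-base promoters, was present for 7 of the 8 genes of the list whose promoters were searched and in 16.1% of 32851 promoters. The 8 genes had 9 promoters, and a gene counted with any of its promoters, whereas the 16.1% is by promoter. H2-DMa held it in 1 of its 2 promoters only, 199 bases before the start. Cd74, H2-Ab1 and Ciita were not among the 8. GATTGG began 49 bases before the start in H2-Aa, 62 in H2-DMb1 and 60 in H2-Eb1, which held it a second time on the other strand at 35. H2-DMb2 and H2-Oa, which had no counts, held it as well, 91 and 44 bases before their starts, and Ctss, which was higher, did not. AGCAAC was present for 3 of the 8 genes, H2-Eb1, H2-Oa and H2-Ob, and in 14.8% of all promoters. A match of such letters is a description of the sequence and not of a bound site, and the search did not sort the genes that were higher from those at 0.

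Chemokines had the highest median change of the 31 lists, over tested members only. Genes at or near 0 in whole cornea, Ccl2, Ccl3, Ccl4 and Ccl7 among them, entered the test through the pools, where they were high. The share of higher genes and the list median therefore follow in part from the filter. Of the 24 genes of the chemokine and receptor list, 12 were tested, 9 were higher and 1 was lower, with a median log2 change of 10.86. Ccl3, which attracts monocytes and T cells, stood at 2843, 1499, 840.2 and 714.0 CPM in the KO-strain WT, KO, MS-strain WT and MS-CKO pools and at 0 in all 5 whole corneas, which made it at least 9214-fold higher (against 3 counts over the whole corneas together, adjusted p = 0.000109). Its neighbour Ccl4, at chr11:83662584-83664683, had 2100, 832.1, 305.0 and 750.1 CPM and was also at 0 in whole cornea (at least 6513-fold, adjusted p = 0.000339). The monocyte chemoattractants Ccl2, Ccl7 and Ccl12 form another cluster at chr11:82035571-82103400. Ccl2 had 945.9, 1189, 127.9 and 617.5 CPM (at least 5200-fold, adjusted p = 0.000739) and Ccl7 had 3509, 1140, 227.1 and 551.6 CPM (at least 7161-fold, adjusted p = 0.000765), both with 0 in every whole cornea. Ccl12 had 2378, 262.2, 50.5 and 210.9 CPM and at most 0.159 CPM in whole cornea (log2 change 12.80 ± 1.80, adjusted p = 0.000229). All 5 genes were highest in the KO-strain WT pool or, for Ccl2, in the KO pool, and each was lowest in an MS-strain pool.

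Cxcl2, a chemoattractant of neutrophils, was the most abundant chemokine, with 3978, 4615, 1093 and 1290 CPM against 0 to 5.19 CPM (9.87 ± 1.33, adjusted p = 0.000173). Cxcl1 and Cxcl16 were also higher in every pool, at 11.6 to 597.9 CPM and 70.4 to 789.4 CPM (log2 changes of 6.65 and 2.92). Cx3cl1, the fractalkine that epithelial and nerve cells make as the ligand of Cx3cr1, was the 1 gene called lower. It was not recovered, with 0 in all pools and 26.1 to 37.5 CPM in whole cornea (at least 261.0-fold lower, counting error only, edgeR adjusted p = 1.87e-05). Among the receptors Ccr1 had no counts in any pool, Ccr2 reached 0.609 CPM in the MS-strain WT pool and 0.0926 CPM in the MS-CKO pool, and Cxcr4 was seen in the MS-strain WT pool alone, at 330.6 CPM.

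Of the 15 genes of cytokines and pattern recognition, 11 were tested, 6 were higher and 1 was lower, with a median log2 change of 4.43. Il1b, which encodes interleukin 1β, stood at 5808, 5917, 485.7 and 778.1 CPM against 0.318 to 1.34 CPM (11.13 ± 1.03, adjusted p = 2.15e-05). Nlrp3, the sensor of the inflammasome that processes it, had 1217, 176.1, 152.4 and 99.7 CPM and 0 in whole cornea (at least 1976-fold higher, adjusted p = 0.00167). The KO-strain WT pool was the highest or close to the highest for both. Tnf had 1427, 385.8, 0 and 34.5 CPM against 2.37 to 7.68 CPM (5.61, adjusted p = 0.0410), and Nfkbia and Nfkbiz, inhibitors induced by NF-κB, were higher by 1.86 and 1.89 on the log2 scale. The calls of Tnf and Nfkbiz were lost without the KO pool (adjusted p = 0.0516 and 0.117), without any 1 of the whole corneas (0.0985 to 0.142) and, for Tnf, without the KO-strain WT pool (0.0922), and that of Nfkbia without whole cornea 1, 2 or 5 (0.0505 to 0.0594). Nfkbiz also lost its call with RLE factors (0.0693), TMMwsp factors (0.0606), only the WT pools (0.260) and only the MS-strain pools (0.162), and Tnf with only the MS-strain pools (0.396). Tlr4, the receptor for lipopolysaccharide, was not recovered, with 0 in all pools and 24.6 to 39.8 CPM in whole cornea. It was thereby called lower (at least 249.4-fold, counting error only, edgeR adjusted p = 2.00e-05). Of all genes at 10 to 100 CPM in whole cornea, 33.5% had no count in any pool. Cd14, the co-receptor of Tlr4, was higher, as given above. Il10 had no counts in any of the pools, and Il6 reached 4.72 CPM in the MS-CKO pool only.

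The adaptors through which Fc and related receptors signal were higher as well. Of the 19 genes of that list, 7 were tested and 3 were higher (beside 1.85% of all tested genes), with a median log2 change of 5.56. Fcer1g, the shared γ chain, stood at 4504, 952.4, 921.1 and 514.6 CPM against 0 to 1.91 CPM (10.42 ± 1.65, adjusted p = 0.000504). Tyrobp, the adaptor DAP12, had 32.3, 2544, 661.7 and 129.8 CPM against 0 to 0.848 CPM (10.22 ± 1.79, adjusted p = 0.000955), and Fcgr3, a low-affinity receptor for IgG, had 108.8, 583.7, 34.1 and 179.3 CPM against 0.415 to 1.70 CPM (7.22 ± 1.08, adjusted p = 0.000345). The KO-strain WT pool was the highest for Fcer1g and the lowest for Tyrobp, so that these adaptors did not keep the same order over the pools.

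Of the 17 dendritic cell genes, 4 were tested and 2 were higher. Cd83, a surface protein of activated dendritic cells, had 1424, 913.3, 372.6 and 164.3 CPM against at most 0.445 CPM (10.67 ± 1.39, adjusted p = 0.000137). Mgl2, a lectin of dermal-type dendritic cells and of macrophages, had 1640, 118.6, 6.24 and 199.3 CPM against at most 1.66 CPM (8.38 ± 1.81, adjusted p = 0.00368). Both were above every whole cornea in every pool. Of the genes that define the subsets, Xcr1, Clec9a, Cd207, Ccr7 and Flt3 had no counts in any pool, while Itgax and Batf3 were seen in the KO-strain WT pool alone (247.6 and 497.1 CPM) and Cd209a in the MS-CKO pool alone (38.2 CPM). Among the 10 monocyte genes 2 were tested and edgeR called 0 of them, nor did either reach an unadjusted p under 0.05. Ly6c2 had no counts, and Fn1, which keratocytes and other cells also express, had 515.2, 414.1, 424.8 and 336.5 CPM against 143.2 to 191.6 CPM (0.78, adjusted p = 0.177), with all pools above all whole corneas on the CPM scale.

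Transcription factors, which are transcribed at low levels, were recovered unevenly. Of 12 myeloid factors, 9 were tested, 1 was higher and 1 was lower. Their median log2 change of 1.16 turned to −0.49 without the KO pool and to −6.98 with only the WT pools. Nr4a1, an orphan nuclear receptor that is also an immediate early gene, had 1704, 747.0, 11.7 and 1174 CPM against 0 to 2.28 CPM (9.95, adjusted p = 0.00330). Spi1, which encodes PU.1, the master regulator of the lineage, was seen in the KO pool alone, at 635.9 CPM, and at 0.357 to 3.86 CPM in whole cornea (5.32, adjusted p = 0.203). Irf8, a factor of monocytes and dendritic cells, was seen in the KO and MS-CKO pools at 154.9 and 34.6 CPM. Runx1 was called lower as a gene not recovered, with 0 in all pools and 38.5 to 50.7 CPM in whole cornea (at least 347.4-fold, counting error only, edgeR adjusted p = 2.45e-05). Of 15 leukocyte integrins and surface proteins only 2 were tested, and Laptm5, a lysosomal membrane protein of blood cells, was higher, with 1261, 30.6, 313.4 and 141.7 CPM against at most 2.37 CPM (7.77, adjusted p = 0.00214). Itgb2, the shared β2 chain of the leukocyte integrins, had 1.66 CPM in the KO pool and 0 in the others.

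Genes of the lysosome and of the actin skeleton, which all cells of the cornea use, divided. All 19 lysosomal genes were tested and 5 were higher (beside 1.85% of all tested genes), with a median log2 change of 0.55. Beside Ctss and Cd68 these were Cd63, a tetraspanin, with 1708, 667.9, 819.8 and 1411 CPM against 56.7 to 73.7 CPM (3.67, adjusted p = 0.000108), the protease Ctsb (1.91) and Ctsz (5.49, adjusted p = 0.0493). Of 18 genes of the actin machinery 13 were tested, 4 were higher and 1 was lower, and the list's median was 0.02, a value whose sign turned in 13 alternatives. Lcp1, the actin bundler of leukocytes, stood at 1712, 660.1, 146.0 and 135.4 CPM against 0.148 to 2.49 CPM (8.27 ± 1.25, adjusted p = 0.000370). Cfl1, which severs filaments, rose by 3.23 on the log2 scale, and 2 subunits of the Arp2/3 complex, Arpc1b and Arpc3, by 1.52 and 1.60. Another subunit, Arpc2, fell by 1.24 (adjusted p = 0.0499). The calls of all 3 subunits were lost when 1 of whole cornea 1 to 4 was left out (edgeR adjusted p = 0.0510 to 0.0726). Over all 19 alternatives Arpc2 kept its call in 8, Arpc1b in 12 and Arpc3 in 15. That of Arpc2 was also lost with library totals, and those of Arpc2 and Arpc1b with only the WT pools.

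**Figure D4:**
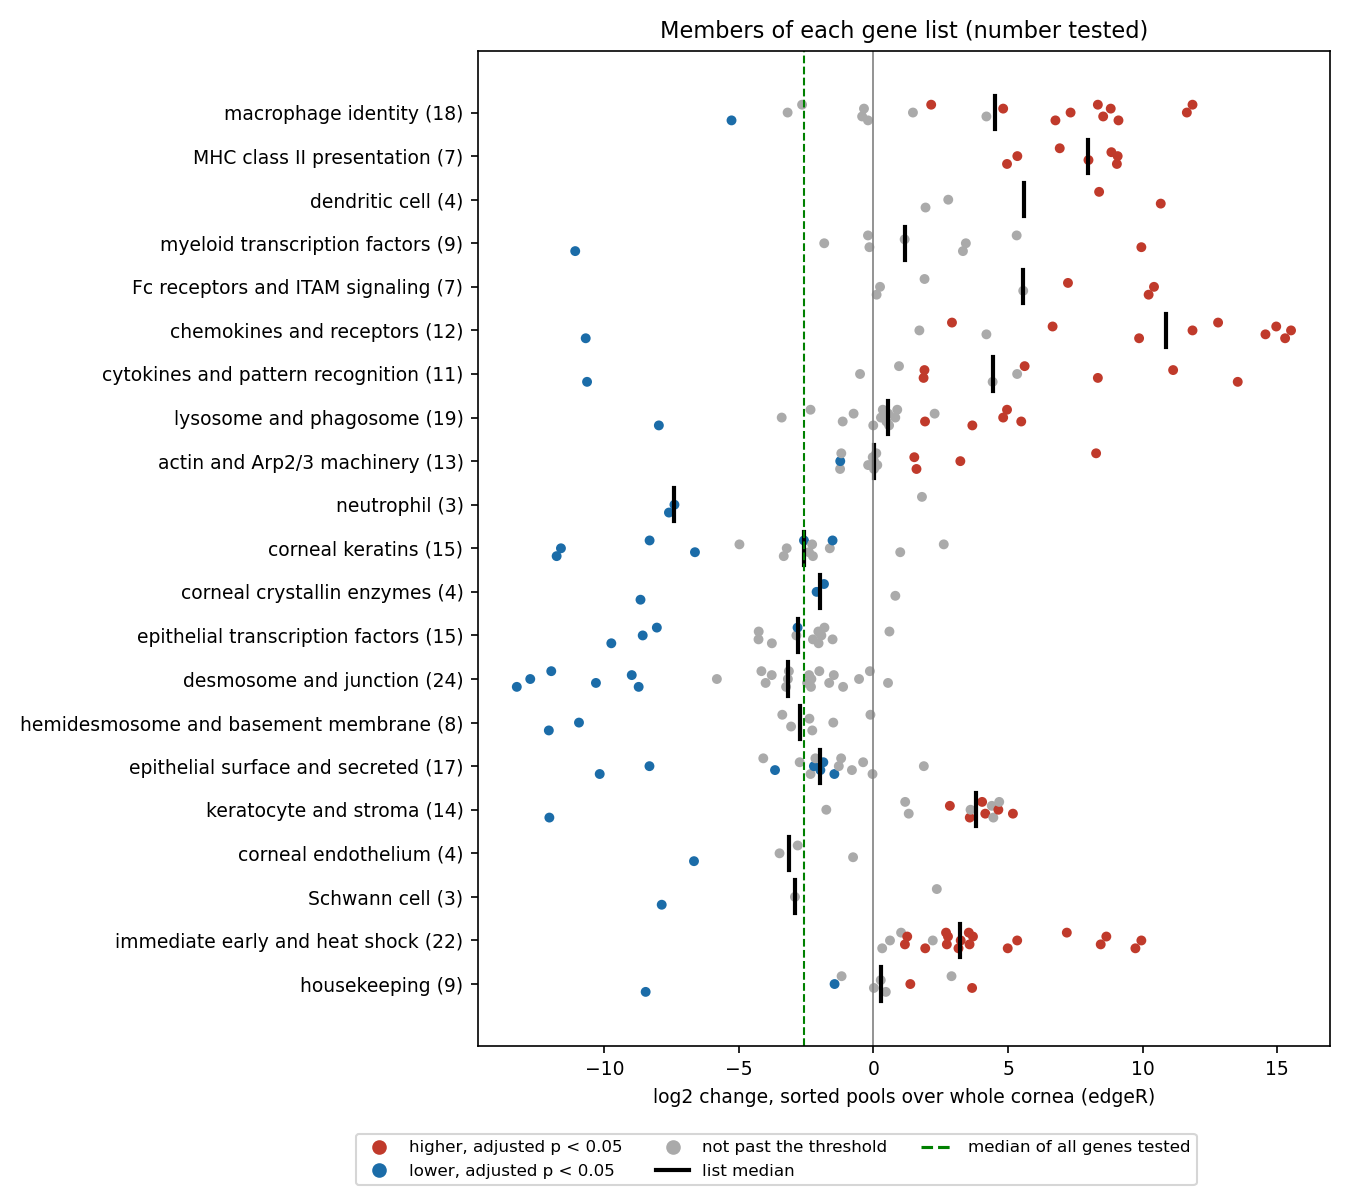
Log2 change of the sorted pools over whole cornea (x axis, edgeR) for each tested member of the gene lists with at least 3 tested members (y axis, number tested in brackets). Red points were higher and blue points lower at an adjusted p under 0.05, black bars are list medians, and the dashed line is the median of all tested genes at −2.58. The points at the far left are genes with no count in any pool, whose fitted change depends on the prior count.

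Markers of other leukocytes were at or near 0. None of the 13 genes of T, NK and innate lymphoid cells with a row, none of 5 B cell genes and none of 8 mast cell genes had a count in any sorted pool. In whole cornea the T and NK genes summed to 0 to 2.52 CPM and the B cell genes to 0 to 2.38 CPM, and none was tested. The mast cell genes summed to 81.8 to 136.5 CPM there, and Kit, the 1 that was tested, was lower. In the spleen pools the T and NK genes summed to 187.9 to 344.5 CPM and the B cell genes to 1801 to 2672 CPM. The 13 neutrophil genes summed to 0.442, 518.2, 0 and 34.8 CPM in the corneal pools, to 7.63 to 48.9 CPM in whole cornea and to 19576 to 45655 CPM in the spleen pools. Of 3 that were tested 2 were lower, Ltf and Il1r2, with no count in any pool. The 518.2 CPM of the KO pool were S100a8 and S100a9, proteins that epithelium also makes under stress, and Ly6g, Mpo, Elane, Ngp and Camp were at 0 in all pools. The genes of melanocytes, which the whole corneas held at 29.7 to 100.9 CPM, had no counts in any pool, and the 10 vessel genes were at 0 but for Kdr, with 428.5 and 144.9 CPM in the MS-strain WT and MS-CKO pools.

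Epithelial genes stayed in every sorted pool. Of the 90 epithelial genes, 83 were tested and 0 were higher, beside 1.85% of all tested genes. The 28 that were lower made 33.7% of those tested, against 42.3% of all tested genes. Of the 28, 16 had no count in any pool and 10 had counts in all 4. Krt12 stood at 4600, 22612, 2975 and 13244 CPM in the KO-strain WT, KO, MS-strain WT and MS-CKO pools and at 20219 to 29858 CPM in whole cornea. The KO pool lay inside the range of whole cornea and the other 3 below it (log2 change −1.62 ± 0.59, adjusted p = 0.0543). In the 4 spleen pools Krt12 was at 0. Krt12 was the gene with the most counts in the KO pool.

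The basal keratins parted. Krt5 had 3385, 7469, 284.2 and 6598 CPM against 17973 to 21608 CPM, all pools below all whole corneas (−2.58 ± 0.78, adjusted p = 0.0235). Krt14, its partner in basal cells, had 741.6, 773.1, 255.3 and 782.8 CPM against 177.6 to 318.7 CPM, so that 3 pools lay above the whole corneas and the MS-strain WT pool within them (0.99 ± 0.49, adjusted p = 0.158). With libraries scaled by their totals Krt14 was called higher (1.52, adjusted p = 0.0266), as it was without the MS-strain WT pool (1.22, adjusted p = 0.0387). The call of Krt5 was lost without the KO-strain WT pool (adjusted p = 0.0578), and also without whole cornea 2, 3, 4 or 5 (0.0514 to 0.0557). Krt6b, a keratin of activated epithelium, was lower (1533, 3195, 712.7 and 2027 CPM against 3002 to 4694 CPM; −1.52 ± 0.41, adjusted p = 0.0133), and Krt6a did not pass the threshold (51.3, 4753, 433.2 and 1558 CPM against 4861 to 6302 CPM; −2.25, adjusted p = 0.125). With library totals the call of Krt6b was lost (adjusted p = 0.0684). Of 15 keratins tested 6 were lower, beside 42.3% of all tested genes. Krt4, Krt18 and Krt78 were 3 of the 6 and had no counts in any pool. Summed over the list, the pools held 17.9%, 71.2%, 8.42% and 43.8% of the keratin level of whole cornea.

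The abundant corneal crystallin enzymes Aldh3a1 and Tkt were recovered in every pool. Aldh3a1, which removes aldehydes formed by ultraviolet light, stood at 3293, 7217, 5539 and 17508 CPM against 23760 to 25808 CPM (−1.84 ± 0.58, adjusted p = 0.0293). Tkt, the transketolase of the pentose phosphate pathway, had 1667, 3528, 848.6 and 3785 CPM against 6721 to 8580 CPM (−2.11 ± 0.50, adjusted p = 0.00606). Both were lower in each pool than in any whole cornea. The call of Aldh3a1 was lost when the KO pool, the MS-strain WT pool or any of the whole corneas was left out (adjusted p = 0.0684 to 0.0807). Of the other genes of the list, Aldh1a1 had 0, 0, 150.8 and 736.1 CPM against 90.2 to 147.9 CPM (0.81, adjusted p = 0.831), and Aldh1a7 was lower, with no counts in any pool (adjusted p = 0.000273). Together the 4 genes of that list kept 15.3%, 33.1%, 20.1% and 67.8% of their whole cornea level.

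Beside 42.3% of all tested genes, 4 of the 15 tested epithelial transcription factors (16 in the list) were lower. Klf4, which maintains the barrier of the surface cells, was the only one with counts in all 4 pools, at 616.5, 439.7, 238.1 and 677.3 CPM against 1941 to 2866 CPM (−2.82 ± 0.40, adjusted p = 0.000227). Pax6, the regulator of eye development, had 0, 174.2, 420.0 and 235.8 CPM against 582.6 to 801.6 CPM (−2.05, adjusted p = 0.354). Of 24 genes of desmosomes and junctions, 5 had counts in the KO-strain WT pool and 6 in the MS-strain WT pool. All 24 were tested and 6 were lower, beside 42.3% of all tested genes. Each of those 6, Dsg2, Ocln and Tjp1 among them, had no count in any pool, as had 4158 of all 4830 lower genes. The list summed to 14.9%, 61.7%, 4.94% and 35.3% of whole cornea. Col17a1, the collagen of the hemidesmosome that ties basal cells to their membrane, was seen in the MS-CKO pool alone, at 857.1 CPM against 1516 to 1884 CPM, and the 8 genes of its list summed to 0% in the KO-strain WT pool and 27.2%, 7.95% and 39.7% in the others.

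Beside 42.3% of all tested genes, 7 of the 17 tested genes of the surface and its secretions (20 in the list) were lower. Mal, a proteolipid of apical transport, had the largest fall among those with counts in all pools, with 49.97, 1926, 300.8 and 513.3 CPM against 6057 to 6850 CPM (−3.66 ± 0.92, adjusted p = 0.00880). Calml3, Lypd2, Psca and Upk1b were also lower, by 1.45 to 2.21 on the log2 scale, of which the calls of Calml3 and Lypd2 were lost with library totals (adjusted p = 0.165 and 0.0699) and that of Lypd2 also without the KO-strain WT pool, the KO pool or any of the whole corneas (0.0670 to 0.0933). At the other end Sfn, the 14-3-3σ protein of keratinocytes, had 643.4, 2285, 372.0 and 2579 CPM against 1297 to 1750 CPM, with the KO and MS-CKO pools above the whole corneas and the other 2 below (−0.38 ± 0.63, adjusted p = 0.730). Over the 19 epithelial genes at 1000 CPM or more in whole cornea, the median level in the pools was 18.8%, 40.9%, 7.74% and 33.5% of the whole cornea mean when scaled by library totals, and 9.34%, 25.5%, 5.90% and 31.4% when scaled with the TMM factors of the test. The middle 50% of those genes lay between 0.400% and 25.3% in the KO-strain WT pool and between 22.7% and 50.0% in the MS-CKO pool.

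**Figure D5:**
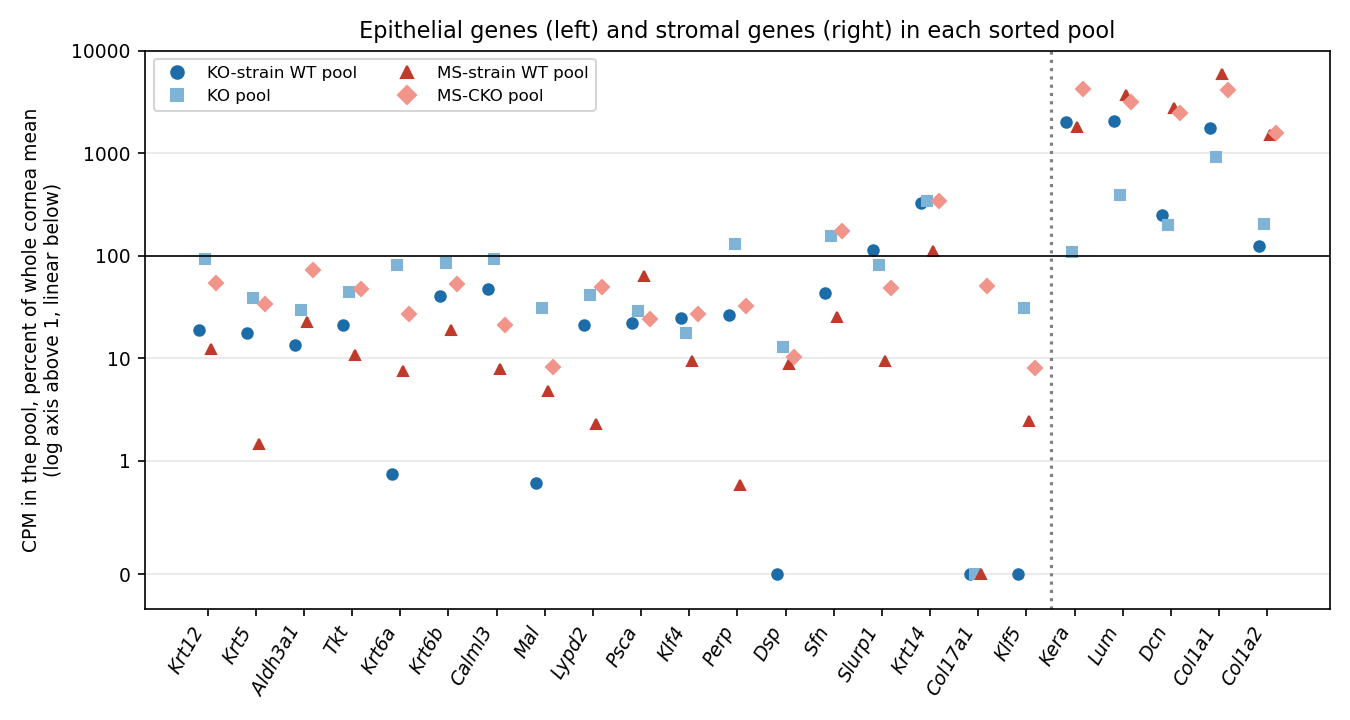
CPM in each sorted pool as a percent of the mean of the 5 whole corneas (y axis, logarithmic above 1 and linear below) for 18 epithelial genes (left of the dotted line) and 5 stromal genes (right). The horizontal line marks 100%. Most epithelial symbols lie below the line, such as Krt5, and Krt14 lies above it in each pool, while Kera, Lum, Dcn, Col1a1 and Col1a2 lie above it in all pools.

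Stromal genes were enriched with the myeloid ones, and most in the MS strain. Of the 14 genes of the keratocyte and stroma list, all tested, 6 were higher and 1 was lower, with a median log2 change of 3.82. Col1a1, the main collagen of the stroma, stood at 7218, 3737, 24101 and 16913 CPM in the KO-strain WT, KO, MS-strain WT and MS-CKO pools and at 244.3 to 787.6 CPM in whole cornea (4.64 ± 0.74, adjusted p = 0.000510). Dcn, the proteoglycan decorin, had 2301, 1842, 25690 and 22926 CPM against 797.3 to 1118 CPM (3.58 ± 0.91, adjusted p = 0.00963). For both genes all pools lay above all whole corneas and the MS-strain pools above the KO-strain pools. Lum, or lumican, had 826.5, 159.2, 1478 and 1266 CPM against 29.0 to 51.8 CPM (4.15 ± 0.76, adjusted p = 0.00128). Kera, the keratocan by which keratocytes are recognised, had 1061, 56.95, 931.0 and 2235 CPM against 21.2 to 82.6 CPM, with the KO pool inside the range of whole cornea (4.04, adjusted p = 0.00821). Col1a2 and Col5a2 were also higher (2.84 and 5.18), but the call of Col1a2 was lost without either MS-strain pool (adjusted p = 0.0652 and 0.102) and without any whole cornea but the third. Ptgds, the prostaglandin D synthase, was not recovered, with 0 in all pools and 35.7 to 232.0 CPM in whole cornea (at least 659.5-fold lower, counting error only, edgeR adjusted p = 0.000618). Stromal genes summed to 490.5%, 312.8%, 2789% and 2474% of whole cornea and to at most 2.15 CPM in the spleen pools. The part of keratocyte RNA in other genes that were higher in the MS-strain pools was not tested.

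The 4 genes of the corneal endothelium summed to 19.0% to 51.5% of whole cornea and none was higher. Cdh2, the N-cadherin of those cells, was lower, with at most 0.457 CPM in a pool (−6.67, adjusted p = 0.000141). Of the Schwann cell genes, Sox10 had no counts in any pool, while Pmp22, which other cells also express, reached 315.8 CPM in the KO pool. Lens genes, which varied from 144.0 to 1316 CPM in summed level between whole corneas, were at 0.237 to 1.67 CPM in 3 pools. In the MS-CKO pool they summed to 204.6 CPM, which were mostly Cryab, a small heat shock protein of many tissues.

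Immediate early and heat shock genes, which cells induce within minutes of disturbance, moved in every pool. Of the 22 genes of that list, all tested, 18 were higher (beside 1.85% of all tested genes) and 0 were lower, with a median log2 change of 3.20. Egr1 stood at 1690, 2416, 1814 and 2200 CPM against 17.0 to 74.5 CPM (4.99 ± 0.54, adjusted p = 4.70e-05), an even rise over the pools. Atf3, a factor of the stress response, had 1021, 1213, 462.3 and 1108 CPM against at most 1.70 CPM (9.73 ± 1.22, adjusted p = 0.000109). Hspa1a, an inducible HSP70, had 7166, 6686, 2216 and 2152 CPM against 217.3 to 304.4 CPM (3.57 ± 0.33, adjusted p = 2.18e-05). The list took up 3.55%, 3.14%, 1.98% and 2.68% of the counts of the corneal pools, 0.220% to 0.280% in whole cornea and 0.358% to 0.629% in the spleen pools, which had also been sorted. Several chemokine and cytokine genes above, such as Cxcl2, Il1b and Ccl3, belong to genes that cells can induce within the same time, and the part of the handling in their level was not tested.

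Genes in common use did not keep a constant level. Of 9 such genes 2 were higher and 2 were lower. Their median log2 change of 0.27 turned to −0.09 with RLE factors or DESeq2, to −0.72 with only the WT pools and to −0.75 without the MS-CKO pool. B2m, the light chain of MHC class I, stood at 4421, 1614, 1560 and 874.8 CPM against 87.7 to 147.9 CPM (3.66 ± 0.41, adjusted p = 5.94e-05). Actb had 6889, 7967, 5476 and 4875 CPM against 10082 to 12611 CPM (−1.45 ± 0.13, adjusted p = 1.83e-05). The groups did not overlap for either gene. Eef1a1, an elongation factor of translation, had 2807, 1844, 1312 and 2669 CPM against 1395 to 1705 CPM (0.01, adjusted p = 0.981). Tbp had 0 in all pools and 5.36 to 9.79 CPM in whole cornea.

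The named genes with the largest falls were all genes with no count in any pool. The 15 largest began with Ppp1r3c, a subunit that directs a phosphatase to glycogen, at 438.4 to 542.6 CPM in whole cornea (at least 3775-fold lower, adjusted p = 3.11e-05), Dock1, an activator of Rac (at least 2048-fold), and Sppl3, an intramembrane protease (at least 1990-fold). They included Npy, a neuropeptide (174.8 to 257.6 CPM in whole cornea), Defb1, an antimicrobial defensin of epithelia (183.4 to 292.0 CPM), and Tjp1, the tight junction scaffold ZO-1 (175.6 to 236.5 CPM). Of 1834 genes at 100 to 1000 CPM in whole cornea, 4.58% had no count in any pool, and these are among them. At the other end the 15 largest rises held 5 chemokines of the CC family together with Pf4, Lyz2, Il1b and Nlrp3, and, outside the lists, Lilr4b, an inhibitory receptor of myeloid cells (1040, 388.4, 297.9 and 107.6 CPM, 0 in whole cornea), the early gene Egr3 and Rgs1, a regulator of chemokine receptor signalling (479.4, 381.8, 12.2 and 219.6 CPM). Lilr4b has a near-identical neighbour to which reads could also have been assigned, so that its value is uncertain.

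Most of the higher genes were also present in myeloid cells of the spleen sorted by the same reporter, which were not part of the test. Of the 211 higher genes, 154 had counts in all 4 spleen pools, 26 had none in any, and 38 had a higher mean in the spleen pools than in the corneal pools. Cd74 and the MHC class II chains were of the same order in both sorts, as the sums above show. Chemokines summed to 4661 to 19412 CPM in the corneal pools and to 1073 to 2617 CPM in the spleen pools, without overlap. The reverse held for leukocyte integrins and surface proteins, with 823.6 to 2622 CPM in the corneal pools and 7498 to 9293 CPM in the spleen pools. These differences were not tested, since tissue and sort were taken up by separate preparations.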

How the data were processed

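RNA was measured by 3′-end sequencing (QuantSeq FWD) of sorted cells and whole tissues. Per the labels and the study's methods, the authors used STAR for alignment to mm10 and HTSeq to count reads by gene. Their versions and the annotation were not given in the sources used here. Raw counts were deposited for 35976 gene rows; 27 rows whose symbols had become dates were kept in the totals. Of the 54 value columns, 17 were used and 37 were not. The columns of 4 of the whole corneas hold the same values as other columns of the table, 1 of which is headed as a TG library. The gene with the most counts was Aldh3a1 or Krt12 in each whole cornea. The strain and genotype of these 4 rest on their headings.

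The 4 sorted pools and 5 whole corneas were fitted alone, with edgeR 4.0.16 (R 4.3.3; TMM factors, filterByExpr, glmQLFit and glmQLFTest) and Benjamini-Hochberg adjustment at 0.05. The test had no replicate, batch or strain term. CPM is counts in each 1000000 of the library total, and SE is the absolute log2 change over the square root of F. Each whole cornea was 1 mouse and each pool several mice, so that p-values measure the spread between mice and between pools of unlike genotype. Totals of 2261266 to 10803867 counts set the precision. The reads carried no molecular identifiers, so that limits from 3 counts cover counting error only. The spleen pools gave values only.

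Members and the 31 gene lists (404 genes, 399 with a row) were chosen with earlier results of these data known. Genes named were the 15 largest changes each way among called genes at 100 CPM or more whose groups did not overlap, up to 6 members per list by mean CPM, called exceptions in the myeloid and epithelial lists, the 10 most abundant epithelial genes of the pools with the 5 of highest ratio, Csf1r and Cd74. Other list members are named where a count turns on them, chosen after their values were seen, and a few are not reported here. Gene positions are those of mm10 and promoters those of RefSeq (GRCm38.p6); H2-Ab1 is named only. Alternatives were RLE factors, library totals, DESeq2 1.42.0, no filter, subsets of pools, another WT cornea and each library left out. The fit was tested on simulated data.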

Additional observations from a re-analysis of the deposited data

Results flagged for a closer look

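In 162 groups of 4 or 5 libraries (the summed level of each list and the level of each gene given in full), 25 had a library that stood far from the others by Dixon's test, which chance does in about 1 in 20 groups. In 9 of them this was the KO-strain WT pool. It was the highest for Cd74 (18922 CPM, next 4633), H2-Aa (11272), H2-DMa (1343), C1qb (4321), Ccl12 (2378), Nlrp3 (1217), Mgl2 (1640) and Fcer1g (4504), and the lowest for the epithelial transcription factors (616.9 CPM in sum, next 1880). That pool also had the fewest counts and the fewest genes (1647), and the part of this in its levels was not tested.

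Among the other pools, the KO pool was far above the rest for the neutrophil list (518.2 CPM) and the MS-CKO pool for the lens list (204.6 CPM). The MS-strain WT pool stood above for the goblet cell list (0.152 CPM, 1 count, the others at 0) and below for Krt14 (255.3 CPM). Where all other libraries are at 0, any count passes Dixon's test, so that the flags of the goblet cell list and of Ccl12 in cornea 3 carry no weight.

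Among the whole corneas, cornea 1 stood apart for erythrocyte genes (269.3 CPM), melanocyte genes (100.9 CPM), corneal endothelium (583.9 CPM, low) and C1qa (5.51 CPM). Cornea 3 was the highest for stromal genes (3945 CPM), Pf4 (0.794 CPM) and Ccl12 (0.159 CPM, the others at 0), and cornea 4 for B2m (147.9 CPM). The column heading of cornea 5 ends in B2, whose meaning the labels do not give. That cornea was the highest for mast cell genes (136.5 CPM) and Mal (6850 CPM) and the lowest for housekeeping genes (12777 CPM) and Actb (10082 CPM).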

How the results depend on the processing

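The 211 higher and 4830 lower genes depended on which libraries were used. Higher genes numbered 327 with DESeq2, 379 with only the WT pools, 797 with only the MS-strain pools and 696 with the KO and MS-CKO pools, a choice made after seeing the genes detected. Lower genes numbered 7627 with no filter on low counts and 9493 with only the WT pools, and 38 among genes with counts in all 4 pools, also chosen after seeing the data. Leaving out 1 library gave 139 to 350 higher and 4229 to 7533 lower genes. There were 350 higher without the KO-strain WT pool, 7533 lower without the MS-CKO pool, and 139 to 147 higher without any 1 whole cornea. The cause was not tested. Of 97 named genes called, 83 kept call and direction in every alternative that tested them, 14 lost the call at least once and 0 changed direction. Among genes not called, some were called the other way: with only the WT pools Cebpb (−5.08), Eef1a1 (−0.72), S100a9 (−10.22) and Spi1 (−6.98), with only the MS-strain pools Grn (−1.34) and Spi1 (−7.11), with the KO and MS-CKO pools Grn (−0.88) and Zbtb46 (−8.24), without the KO pool Hbb-bt (−8.70) and Spi1 (−7.04), and without the MS-strain WT pool Zbtb46 (−8.17). With each library left out in turn, these last ranged from −8.70 to 1.90 for Hbb-bt, −7.04 to 5.71 for Spi1 and −8.17 to 3.17 for Zbtb46. These genes had counts in few pools or in unequal amounts. Of 392 list medians under the alternatives, 7 moved by more than the spread of their list. No paired analysis was possible because the sorted pools carry no replicate number. Of the genes at 10 to 100 CPM in whole cornea, 9.98% had counts in the KO-strain WT pool. Genes higher in the pools could still be recovered there, such as Cd74, at 3.93 to 12.5 CPM in whole cornea and 18922 CPM in that pool. For a gene at 0 there, removal by the sort and missed detection cannot be told apart. That limits every statement on thinly expressed genes.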

Other observations

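Outside the lists, and chosen after their values were seen, A2m, Apod, Bgn and Col6a3 were among the higher genes and had most counts in the MS-strain pools. A2m, a protease inhibitor of tissue fluid, had 742.5, 1492, 9137 and 6842 CPM in the KO-strain WT, KO, MS-strain WT and MS-CKO pools against 96.2 to 211.5 CPM in whole cornea (log2 change 4.55, edgeR adjusted p = 0.00164). The lipocalin Apod had 353.3, 825.5, 5532 and 5398 CPM (3.95, adjusted p = 0.00586), and the proteoglycan Bgn had 741.2, 707.1, 5393 and 2986 CPM (4.50, adjusted p = 0.000893). Col6a3, a chain of collagen VI, had 158.8, 347.4, 3562 and 2847 CPM (4.15, adjusted p = 0.00839). All of these lay above every whole cornea in each pool and had at most 0.102 CPM in the spleen pools. The part of keratocyte RNA in them was not tested.

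Mitochondrially encoded genes took up 10.7%, 4.13%, 12.3% and 5.35% of the counts of the pools against 1.46% to 1.66% in whole cornea. Of 7 that were tested 4 were higher (ND4, CYTB, ND1 and COX1, log2 changes of 1.83 to 2.46) and none was lower. ND4, a subunit of complex I, had 40008, 18956, 63930 and 19463 CPM against 4303 to 5649 CPM. Of 95 ribosomal protein genes tested 6 were higher and 9 were lower, with a median log2 change of 0.00. The metallothioneins Mt1 and Mt2, which bind zinc and rise in stressed cells, were higher, Mt1 with 3485, 2003, 2485 and 2310 CPM against 369.3 to 439.7 CPM (2.15, adjusted p = 5.80e-05), and they were at most 30.2 CPM in the spleen pools. Both ferritin chains were higher, Fth1 with 4995, 7833, 2461 and 3189 CPM against 835.2 to 933.8 CPM (1.82, adjusted p = 0.000374) and Ftl1 with 1369, 591.8, 1122 and 500.8 CPM against 23.3 to 49.3 CPM (4.26, adjusted p = 7.83e-05).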
